A study of Mus musculus with 6 samples.

Results

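The expression of 10 genes that mark adventitial fibroblasts of progenitor type was measured in 6 libraries of mouse aorta. They were Pi16, Ly6a, Cd34, Dpt, Scara5, Fbln1, Clec3b, Serpinf1, Entpd2 and Pcolce, found by their symbols as 10 of the 55335 genes in the count table, and all 10 had enough reads to be among the 16612 genes tested. They were picked because several of them were high together in the aged libraries other than aged replicate 2. Their difference between aged and young aorta is therefore given as a description, without a test, and supports nothing by itself. RNA came from the aorta of wild-type C57BL/6 mice at 6 weeks of age (young, 3 libraries) and at 6 months (aged, 3 libraries). The labels name no transgene, deletion or treatment in either group. The methods describe all mice as male, a vessel of about the same length from each mouse, and removal of the surrounding fat under a microscope before freezing. Single-ended reads of 50 bases were counted per gene, and CPM below are counts scaled to a common library size (counts per 1e6) after TMM normalization, which adjusts for composition.

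The adventitia is the outer coat of an artery, where fibroblasts lie in collagen beside nerves, small vessels, macrophages and fat. A population marked by Pi16, Dpt and Cd34 and by Ly6a, which encodes Sca-1, is found in the connective tissue of many organs and is regarded as a reservoir from which other fibroblasts arise. These markers are not exclusive. Ly6a and Cd34 are also made by endothelium and blood progenitors, Serpinf1 by adipocytes, and Entpd2 by Schwann cells and other glia. In bulk tissue, a different number of such cells and a different amount of RNA per cell cannot be told apart.

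The libraries held between 31049632 and 45832185 counts on genes, and the 10 genes took 27252 to 117848 of them. Young replicate 1 stood apart in sex-linked genes, with 14806 counts of Xist against 7 to 24 elsewhere and 53 counts of the Y-linked Ddx3y against 1488 to 2117, which goes against the male sex given in the methods. Aged replicate 2 lay with the young libraries for the 10 genes. It held the most RNA of brown adipocytes, with 9 markers summing to 2087 CPM against 153 to 691 in the other libraries. Whether the labels of these libraries are right was not tested, and every aged against young value holds only for the labels as given. Fold changes of the 10 genes and medians of the fibroblast and partner lists are given with and without both libraries, and other values are from all 6 unless stated. Over all 16612 genes tested, edgeR called 0 between aged and young aorta (lowest adjusted p = 0.189, quasi-likelihood test), with 1723 (10.4%) at an unadjusted p below 0.05, where DESeq2 called 338 (2.03%) and limma on FPKM 0.

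Sequences upstream of the transcription start were available for 7 of the 10 genes. Those of the 2 pairs with the most similar profiles over the 6 libraries, Dpt with Entpd2 and Serpinf1 with Pcolce, are shown because these genes went up and down together most closely. Each line holds the 250 bases before the RefSeq start on the strand of the gene, from 5′ to 3′ (GRCm38.p6). Capitals mark matches, on either strand, to the TATA box spelled TATAAA, the CCAAT box, the GC box spelled GGGCGG, the AP-1 motif spelled TGANTCA, the TEAD motif spelled GGAATG, and to each of the E-boxes, one being CAGCTG while the other one is CACGTG. None of these motifs contains another.
Dpt, chr1:164796413-164796662, plus strand: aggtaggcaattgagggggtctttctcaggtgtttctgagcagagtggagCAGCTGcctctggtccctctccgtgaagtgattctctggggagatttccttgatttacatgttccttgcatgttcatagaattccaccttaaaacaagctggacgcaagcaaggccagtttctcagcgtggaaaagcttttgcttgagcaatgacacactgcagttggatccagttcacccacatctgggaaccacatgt
Entpd2, chr2:25395624-25395873, plus strand: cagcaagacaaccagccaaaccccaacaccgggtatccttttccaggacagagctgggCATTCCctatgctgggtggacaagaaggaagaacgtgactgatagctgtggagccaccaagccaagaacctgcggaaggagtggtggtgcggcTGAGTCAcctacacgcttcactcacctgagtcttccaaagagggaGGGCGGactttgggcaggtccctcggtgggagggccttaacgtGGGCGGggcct
Serpinf1, chr11:75422624-75422873, minus strand: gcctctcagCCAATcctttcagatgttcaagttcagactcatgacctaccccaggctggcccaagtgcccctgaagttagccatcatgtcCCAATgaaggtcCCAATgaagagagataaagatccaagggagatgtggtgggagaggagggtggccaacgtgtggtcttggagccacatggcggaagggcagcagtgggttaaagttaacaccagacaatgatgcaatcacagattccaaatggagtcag
Pcolce, chr5:137611405-137611654, minus strand: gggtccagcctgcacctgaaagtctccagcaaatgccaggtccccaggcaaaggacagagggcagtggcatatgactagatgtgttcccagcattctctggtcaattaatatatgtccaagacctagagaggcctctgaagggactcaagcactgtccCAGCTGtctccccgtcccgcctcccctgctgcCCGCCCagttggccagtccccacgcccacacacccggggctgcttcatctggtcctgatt
No motif was common to both genes of either pair. Dpt held 1 CAGCTG, 200 bases before the start, and Entpd2 held 2 GC boxes, 1 AP-1 and 1 TEAD match. Serpinf1 held 3 CCAAT matches, and Pcolce 1 GC box and 1 CAGCTG. No TATAAA was found in any of the 7 genes, a motif present in 12.4% of the 32851 promoter windows of the same length. The GC box occurred in 32.7% of all windows and the CCAAT box in 33.8%. The TEAD motif occurred in 12.6%, the AP-1 motif in 6.75%, and the E-boxes CAGCTG in 13.0% and CACGTG in 6.02%. A match in these letters is a description of the window and not a binding site.

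Among the surface proteins, Pi16 stood at 140.8, 176.6 and 123.5 CPM in young replicates 1, 2 and 3 and at 643.7, 82.59 and 599.5 CPM in aged replicates 1, 2 and 3. Aged replicates 1 and 3 were about 4-fold above the young mean (4.38 and 4.08 times), and aged replicate 2 was below every young library. Pi16 encodes a peptidase inhibitor of the CAP family that is anchored at the cell surface, and lies on chromosome 17 from 29317680 to 29330593 (GRCm38, GENCODE M21, as for the other genes). Ly6a, which encodes the GPI-anchored protein Sca-1, lies on chromosome 15 from 74994877 to 74998031. It was at 24.58, 23.65 and 21.04 CPM in young aorta and at 128.8, 33.9 and 236.1 CPM in aged aorta. It differed from the other 9 genes in aged replicate 3, which was 10.2 times the young mean and 1.83 times aged replicate 1. All 3 aged libraries lay above all 3 young libraries for this gene, with aged replicate 2 at 1.47 times the young mean.

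Cd34, on chromosome 1 from 194938819 to 194961279, encodes a sialomucin of endothelial, blood progenitor and stromal cells. Young aorta had 83.7, 91.3 and 72.38 CPM and aged aorta 300.8, 71.69 and 323.1 CPM. Aged replicate 2 was just under the lowest young library, so the groups overlapped. Scara5, a scavenger receptor that takes up ferritin, lies on chromosome 14 from 65666403 to 65764826. Its CPM were 29.35, 41.93 and 31.44 in young and 189.3, 43.97 and 176.1 in aged libraries, with aged replicate 2 slightly above the highest young value. Entpd2, on chromosome 2 from 25395874 to 25401321, encodes an enzyme that removes phosphate from extracellular ATP. Its young range was the narrowest of the 5 surface genes, at 29.04, 25.72 and 27.36 CPM, and was at 107.9, 29.71 and 91.98 CPM in aged aorta.

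The secreted genes followed the same libraries. Dpt encodes dermatopontin, which binds decorin and collagen fibrils, and lies on chromosome 1 from 164796644 to 164824266. It stood at 142.7, 126.4 and 131.9 CPM in young and at 604.9, 153.6 and 498.2 CPM in aged libraries. Fbln1, on chromosome 15 from 85205949 to 85286535, encodes fibulin-1, a calcium-binding glycoprotein of basement membranes and elastic fibres. With 94.6, 93.2 and 96.62 CPM it had the narrowest young range of the 10 genes, the highest library being 1.04 times the lowest, and it was at 401.0, 59.29 and 342.5 CPM in aged aorta. Aged replicate 2 was here at 0.625 times the young mean, below every young library, as it was for Pi16 and Cd34. Clec3b encodes tetranectin, a plasminogen-binding lectin, on chromosome 9 from 123150946 to 123157432. Its CPM were 74.74, 44.06 and 51.75 in young and 309.2, 67.56 and 359.2 in aged libraries, and aged replicate 2 fell inside the young range.

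Serpinf1, on chromosome 11 from 75409769 to 75422701, encodes pigment epithelium-derived factor, a serpin without protease inhibition that restrains vessel growth. It was at 86.3, 113.2 and 150.2 CPM in young aorta and at 512.0, 102.0 and 376.8 CPM in aged aorta. Pcolce, on chromosome 5 from 137605103 to 137613784, encodes an enhancer of the protease that trims the C-terminal propeptide of procollagen. Its values were 54.47, 74.2 and 93.53 CPM in young and 348.5, 78.0 and 246.8 CPM in aged libraries. These 2 genes had the widest young ranges, with the highest library 1.74 and 1.72 times the lowest, and in both aged replicate 1 was clearly above aged replicate 3. Aged replicate 2 was within the young range for Serpinf1, Clec3b and Pcolce, above it for Ly6a, Dpt, Scara5 and Entpd2, and below it for Pi16, Cd34 and Fbln1.

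**Figure D1:**
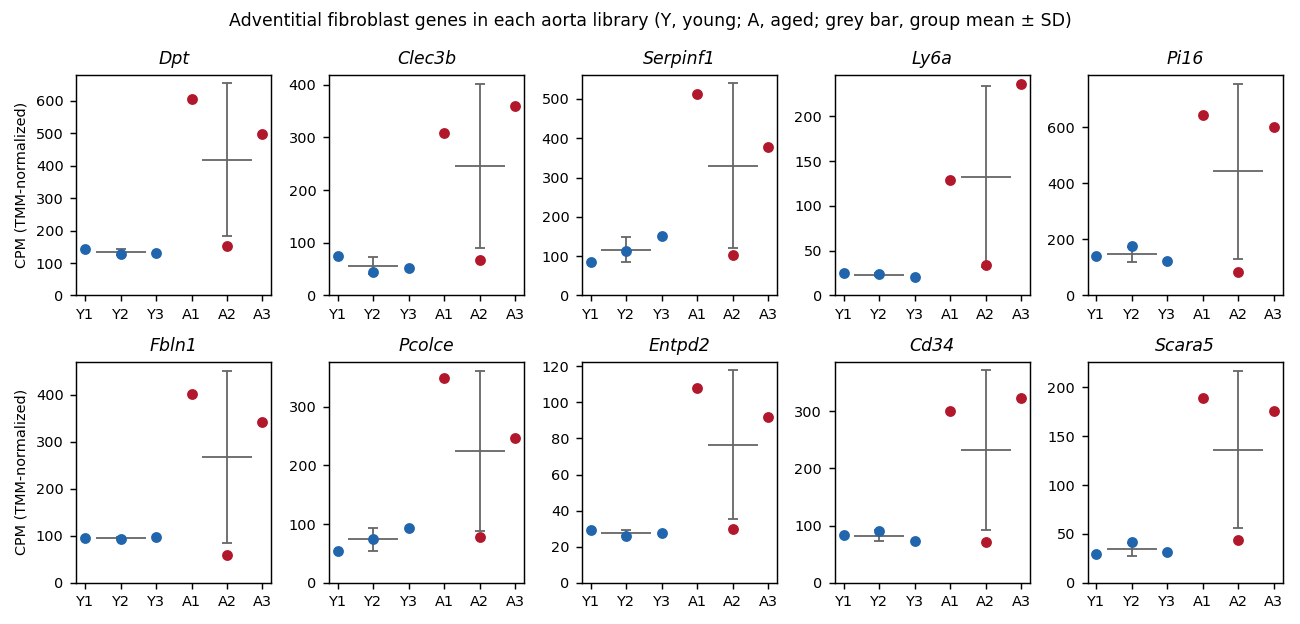
CPM after TMM normalization (vertical axis, from 0, separate for each gene) in young (blue) and aged (red) libraries, with the group mean ± SD (n = 3) as a grey bar. In every panel aged replicates 1 and 3 sit at 2.51 times the highest of the other 4 libraries or more, and aged replicate 2 sits beside the young libraries.

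Relative to the young mean, aged replicate 1 was between 3.65 and 5.58 times (median 4.46) and aged replicate 3 between 3.23 and 10.2 times (median 3.82) over the 10 genes. Aged replicate 2 lay between 0.562 and 1.47 times (median 1.07). All 10 genes exceeded every young library in aged replicates 1 and 3, which held for 17.5% of all genes tested. A stricter form of the same pattern, with each of these libraries at least 2 times the highest of the other 4, was met by all 10 genes and by 1.31% of genes tested (218 genes). With aged replicate 2 included, 4 of the 10 genes had all aged above all young libraries, against 7.74% of genes tested. Aged libraries were all below young libraries for 0 of the 10 genes and for 8.78% of genes tested. A further form asked that aged replicates 1 and 3 be at least 2 times every young library and that the young libraries and aged replicate 2 lie within 2-fold of each other, and was met by 9 of the 10 genes and 0.897% of genes tested. These counts repeat what the genes were picked for, and nothing is read from them.

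Fitted by edgeR over all 6 libraries, aged against young, the log2 fold changes ran from 1.48 to 2.53, with a median of 1.59 beside 0.02 for all genes tested. Ly6a had the highest, 2.53 (SE 0.61), followed by Clec3b at 2.11 (SE 0.57) and Scara5 at 1.99 (SE 0.51). The other 7 genes lay close together. Dpt was at 1.65 (SE 0.45), Pcolce at 1.60 (SE 0.51), Pi16 at 1.59 (SE 0.66), Serpinf1 at 1.5 (SE 0.54), Fbln1 at 1.5 (SE 0.60), Cd34 at 1.49 (SE 0.51) and Entpd2 at 1.48 (SE 0.43), so that neighbours differed by less than a standard error. The spread was wider in the aged group, where Pi16 was at 442 CPM ± 312 (SD, n = 3), against 147 CPM ± 27.1 in young aorta (SD, n = 3). Without aged replicate 2 the median was 2.03 and the standard errors were 0.16 to 0.27. Of all genes tested, edgeR then called 0.583% higher in aged aorta, against 0% with all libraries. DESeq2 on all libraries called 1.33% higher. Calls of the 10 genes themselves are not given, because the contrast chose these genes. Leaving out young replicate 1 alone gave a median of 1.55, and leaving out both young replicate 1 and aged replicate 2 a median of 2.01, each with 0 genes called by edgeR (1952 and 2766 at an unadjusted p below 0.05).

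**Figure D2:**
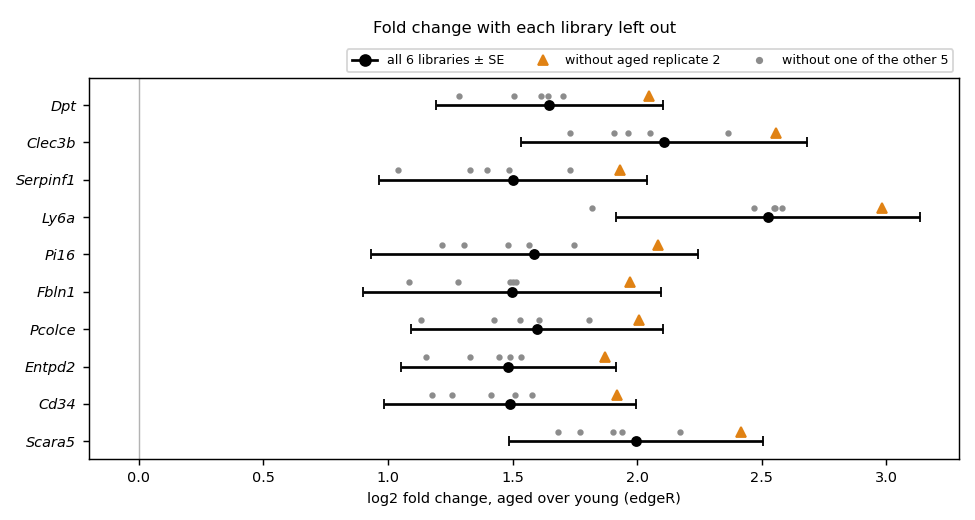
Log2 fold change of aged over young aorta (horizontal axis) for each gene from edgeR, with all 6 libraries (black, ± SE), without aged replicate 2 (orange triangles) and without one of the other libraries (grey). All values lie above 0, and for every gene the triangle is the highest.

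Levels between genes were compared as FPKM, the authors' counts corrected for gene length and library size. Averaged over the 6 libraries, Dpt was at 139 FPKM, Clec3b at 131, Serpinf1 at 82.9, Ly6a at 54.9, Pi16 at 40.1, Fbln1 at 36.2, Pcolce at 34.1, Entpd2 at 21.3, Cd34 at 18.7 and Scara5 at 12.1. Of the 9 neighbouring pairs in this order, only Pcolce over Entpd2 and Cd34 over Scara5 kept their order in all 6 libraries. Ly6a was below Pi16 in all 3 young libraries and above it in all 3 aged libraries, so the order of this pair differed by age group. The gap was small in aged replicate 1 (91.29 against 86.16 FPKM), and the change of order was not tested. The remaining pairs kept their order in 4 or 5 libraries. In young aorta the Dpt range (71.74 to 78.65 FPKM) began only just above the end of the Clec3b range (43.49 to 71.65). Serpinf1 (34.8 to 63.7) was apart from Ly6a (17.4 to 19.4). Both orders were swapped in aged replicate 3. Dpt ranked between 405 and 448 among all genes by FPKM in the young libraries and aged replicate 2, and at 102 and 107 in aged replicates 1 and 3. Scara5, the lowest of the 10, ranked between 4637 and 6235 in the former libraries and at 1281 and 1243 in the latter.

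**Figure D3:**
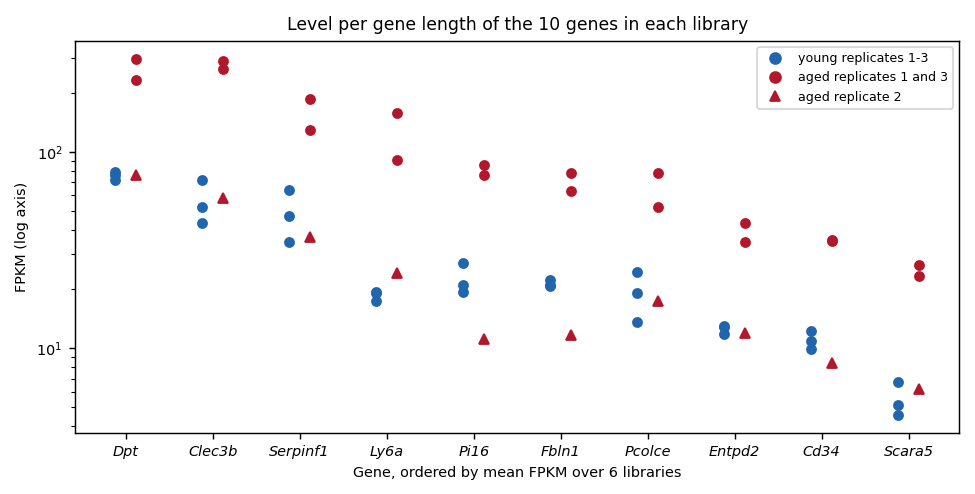
FPKM on a log axis for each gene, ordered by the mean over 6 libraries, in young libraries (blue circles), aged replicates 1 and 3 (red circles) and aged replicate 2 (red triangles). Levels span from 4.58 FPKM for Scara5 in young replicate 1 to 299 FPKM for Dpt in aged replicate 1, and the triangles lie below all young circles for Pi16, Fbln1 and Cd34.

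Reads of some of these genes can belong to a neighbour or relative. Of the distinct stretches of 50 bases in Ly6a transcripts, 19.0% also occur in transcripts of another gene, among them Ly6c1, Ly6c2 and Ly6i. For Entpd2 the share was 25.9%, all of it with Npdc1, a protein-coding gene on the same strand that shares 612 exonic bases with it. Npdc1 had a log2 fold change of 0.37 (SE 0.18, adjusted p = 0.518 from edgeR), smaller than the 1.48 of Entpd2. Dpt, Scara5, Fbln1, Clec3b and Serpinf1 had no shared stretch, and for Pi16, Cd34 and Pcolce the share was 3.88%, 2.14% and 1.58%. Ly6c1 had 632 to 2917 counts per library and Ly6a 722 to 6670, while Ly6c2 reached 61 and Ly6i 10 at most. How the authors assigned such reads is not given in the sources used here.

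The profiles of the 10 genes over the 6 libraries resembled each other, with Pearson correlations of log2 CPM from 0.889 (Ly6a with Serpinf1) to 0.9995 (Dpt with Entpd2) and a median of 0.957 over 45 pairs. All points share the libraries, their size factors and the choice of the genes, and no p is given. Serpinf1 and Pcolce (0.995) and Pi16 and Fbln1 (0.988) were the next closest. Entpd2 was nearest to the mean of the other 9 genes (0.993), and Pi16 farthest (0.951). Of 9143 other genes averaging 10 CPM or more, 112 (1.22%) correlated at 0.95 or more with the mean profile. Among the most alike were Plscr4 (0.997), Plekha4 (0.995), Syngr2 (0.993) and Rap1b (0.989). Syngr2 was also the closest gene to Dpt and to Entpd2, at 15.52, 13.94 and 14.69 CPM in young and 63.16, 17.1 and 54.96 CPM in aged libraries. Rap1b had the same ups and downs at a smaller scale, with a log2 fold change of 0.45 (SE 0.19, adjusted p = 0.472 from edgeR). For single genes, Dcn, which encodes the collagen-binding proteoglycan decorin, was the closest to Serpinf1 (0.996), Hfe to Scara5 (0.999), Fxyd5 to Ly6a (0.997), Rab3il1 to Fbln1 (0.997), Gpr153 to Pi16 (0.995), Plscr4 to Cd34 (0.997), Ogfr to Clec3b (0.996) and Twf1 to Pcolce (0.995).

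Other fibroblast genes were read from lists that hold none of the 10. Among 14 genes made by fibroblasts in general, 0 were called by edgeR in either direction, 8 had a positive and 6 a negative fitted value, and the median log2 fold change was 0.32, or 0.40 without young replicate 1 and aged replicate 2. Their summed level was 11620, 11440 and 13560 CPM in young and 18670, 8520 and 13960 CPM in aged replicates 1, 2 and 3. The 3 most abundant per length were Gsn (gelsolin, which severs actin) at 0.71 (SE 0.37), Ogn (osteoglycin, a small proteoglycan) at -0.07 (SE 0.28) and Mfap4 (a microfibril protein) at 0.47 (SE 0.21), with adjusted p of 0.546, 0.944 and 0.505 from edgeR. Within this list, genes picked after their values were seen fell on both sides. Dcn was at 1.45 (SE 0.53), Lum (lumican, a relative of decorin) at 1.33 (SE 0.58) and Pdgfra (a growth factor receptor of fibroblasts) at 1.31 (SE 0.38), while the collagen genes Col1a1, Col1a2, Col3a1 and Col5a1 were at 0.17, -0.05, -0.28 and -0.54 with standard errors of 0.36, 0.28, 0.31 and 0.22. Pdgfra and Dcn passed the edgeR threshold without aged replicate 2 (adjusted p = 0.0344 and 0.0488), and Pdgfra by DESeq2 on all libraries (adjusted p = 0.0399). Aged replicate 2 is the library set aside when the 10 genes were picked. Calls made without it, for genes of similar profile, therefore support nothing by themselves. With young replicate 1 also left out, edgeR called 0 genes.

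Set against this summed level, the 10 genes together came to 6.54%, 7.08% and 5.90% in young replicates 1, 2 and 3 and to 19.0%, 8.48% and 23.3% in aged replicates 1, 2 and 3. The sum is weighted to its genes of highest CPM, Col3a1, Col1a2 and Gsn, with means of 2296, 2274 and 2089 CPM over the 6 libraries. Whether it follows the amount of fibroblasts was not tested, and the percentages are not a measure per fibroblast. The share in aged replicate 2 lay above the 3 young values by this measure. Each gene on its own, as a share of the same sum, was 2.36 to 3.61 times its young mean in aged replicate 1 and 2.85 to 8.85 times in aged replicate 3. In aged replicate 2 it was 0.793 times for Pi16 and 0.892 times for Fbln1, and between 1.23 and 2.08 times for the other 8.

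A list of 22 further genes of the Pi16-positive state had a median log2 fold change of 0.69, with 15 positive and 7 negative values and 0 called by edgeR (10 at an unadjusted p below 0.05, beside 10.4% of all genes, lowest adjusted p 0.377). The median was 0.78 without young replicate 1 and aged replicate 2. Its most abundant genes did not have the pattern of the 10. Axl, a receptor kinase, was at 0.14 (SE 0.17), Efhd1, a calcium-binding mitochondrial protein, at -0.05 (SE 0.20), and Mfap5, a microfibril protein, at -0.17 (SE 0.19), with adjusted p of 0.792, 0.942 and 0.765 from edgeR. Among genes with large values, named after they were seen, Igfbp6 (a binding protein of insulin-like growth factor 2) was at 20.93, 32.76 and 29.2 CPM in young and 213.1, 26.16 and 115.3 CPM in aged libraries. Both aged replicates 1 and 3 were at least 2 times the other 4 libraries for 5 of the 22 genes, beside the 1.31% of all genes given above. The 14 genes of other fibroblast states had a median of 1.24 (1.60 without young replicate 1 and aged replicate 2), with 12 positive and 2 negative values and 0 called by edgeR. Of these 14, 8 were at an unadjusted p below 0.05 by edgeR, beside 10.4% of all genes (lowest adjusted p 0.382). DESeq2 called 4 of these 14 and 3 of the 22 genes above, beside 2.03% of all genes. Without aged replicate 2, edgeR called 1 of the 14 and 2 of the 22, beside 0.583% of all genes called higher. Aged replicates 1 and 3 were both at least 2 times the other 4 libraries for 4 of the 14, beside 1.31% of all genes. Sfrp2 (a secreted Wnt modulator), Cygb (cytoglobin, an oxygen-binding protein) and Col15a1 (a basement membrane collagen) were the most abundant, at 0.76 (SE 0.23), 1.75 (SE 0.58) and -0.42 (SE 0.31).

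Hedgehog signalling, in which ligands relieve Ptch1's block on Smo and activate Gli factors, is known to act on Ly6a-positive cells of the adventitia. Of 14 genes of this pathway 13 were tested and 0 were called by edgeR (4 at an unadjusted p below 0.05, beside 10.4% of all genes), with 7 positive and 6 negative values and a median log2 fold change of 0.08 (0.21 without the same 2 libraries). Shh had no count in any library. Gas1 and Boc, co-receptors, and Smo were the most abundant, at 0.66 (SE 0.24), 0.20 (SE 0.33) and -0.10 (SE 0.18), with adjusted p of 0.437, 0.843 and 0.865 from edgeR. Of 13 transcription factors of mesenchyme, 0 were called by edgeR, 11 had positive and 2 negative values, and the median was 0.46 (0.79 without the 2 libraries). The most abundant were Osr1 at -0.77 (SE 0.19), Klf4 at 0.71 (SE 0.27) and Twist1 at 0.12 (SE 0.21). Osr1 passed by DESeq2 (adjusted p = 0.0302, lower in aged aorta) and not by edgeR (adjusted p = 0.377).

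Relatives of the 10 genes in the same protein families were mostly nearer to 0. Of 31 such genes 23 were tested, 0 were called by edgeR, and the median log2 fold change was 0.21 (0.38 without young replicate 1 and aged replicate 2), with 17 positive and 6 negative values. The relatives of Entpd2, which split extracellular or intracellular nucleotides, lay between -0.21 (Entpd1, SE 0.18) and 0.02 (Entpd5, SE 0.24). Pcolce2, the other enhancer of procollagen trimming, was at 0.22 (SE 0.36), with 105.9, 128.3 and 155.4 CPM in young and 203.1, 75.75 and 174.3 CPM in aged libraries. The CAP family relatives of Pi16, Crispld1, Crispld2, Glipr1 and Glipr2, lay between 0.03 and 0.42, and Scara3 was at 0.38 (SE 0.20). Larger values were found among relatives of Ly6a, Cd34 and Fbln1. Ly6c1 was at 1.55 (SE 0.51) and Ly6e at 1.05 (SE 0.56), Podxl (podocalyxin, a relative of Cd34 made by endothelium) at 1.35 (SE 0.69), and the fibulins Fbln2 and Efemp1 at 1.33 (SE 0.49) and 1.77 (SE 0.49), whereas Fbln5 was at 0.05 (SE 0.25). Fbln7 was at 1.09 (SE 0.70), and adjusted p for all of these were 0.377 or higher by edgeR. Fbln2 and Ly6c1 passed without aged replicate 2 (adjusted p = 0.0344 and 0.0488 from edgeR), and Efemp1 by DESeq2 (adjusted p = 0.0164). The calls of Fbln2 and Ly6c1 left out the library set aside when the 10 genes were picked, and support nothing by themselves. With young replicate 1 also left out, edgeR called 0 genes. The differences between the 10 genes and their relatives were not tested.

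**Figure D4:**
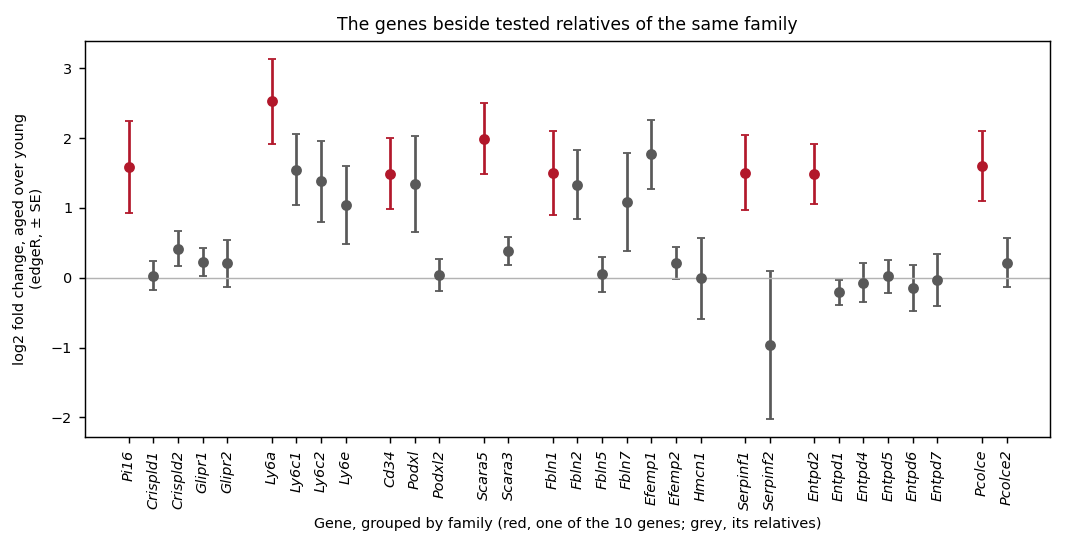
Log2 fold change of aged over young aorta from edgeR (vertical axis, ± SE) for 8 of the genes (red) and their tested relatives (grey), grouped by family. The relatives of Entpd2 and Pi16 lie between -0.21 and 0.42, while Efemp1 at 1.77 lies above Fbln1 at 1.5.

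Genes that work with the 10 gave a median log2 fold change of 0.09 (0.08 without those 2 libraries) over 29 tested of 31, with 0 called by edgeR, 19 positive and 10 negative. Bmp1, the protease that Pcolce assists, was at -0.25 (SE 0.30), with 131.3, 256.0 and 256.0 CPM in young and 210.7, 132.9 and 197.4 CPM in aged libraries. Adamts2, which trims the other end of procollagen, was at 153.6, 174.7 and 243.5 CPM in young and 345.4, 127.9 and 262.3 CPM in aged libraries (log2 fold change 0.36, SE 0.36). Aged replicates 1 and 3 lay above every young library for Adamts2 and not for Bmp1. Ftl1, the ferritin light chain that Scara5 binds, was at 217.7, 209.7 and 157.4 CPM in young and 495.1, 281.3 and 526.3 CPM in aged aorta. Its aged and young libraries did not overlap, and its log2 fold change was 1.16 (SE 0.27, adjusted p = 0.372 from edgeR, 0.00913 from DESeq2). Fth1, the heavy chain, was at 0.54 (SE 0.20, adjusted p = 0.446 from edgeR). Nt5e, which turns the AMP made by nucleotidases into adenosine, was at 3.91, 3.0 and 17.2 CPM in aged and 2.5, 3.28 and 2.83 CPM in young libraries, so that aged replicate 3 alone was high (log2 fold change 1.49, SE 0.66). Plxdc2, a receptor of the Serpinf1 product, was at 0.30 (SE 0.18), and Fn1, fibronectin, at -0.39 (SE 0.19).

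Markers of other cells varied over the same libraries. The 9 endothelial genes, none of them at 0, summed to 438 to 550 CPM in young aorta, to 425 and 383 CPM in aged replicates 1 and 2 and to 1795 CPM in aged replicate 3, the library in which Ly6a, Cd34 and Clec3b were highest. Pecam1 alone was at 869.9 CPM there and between 166.6 and 225.4 CPM elsewhere. In aged replicate 1, Ly6a stood at 5.58 and Cd34 at 3.65 times the young mean. The part of endothelium in the values of Ly6a, Cd34 and Clec3b was not tested. The 10 macrophage genes summed to 115 to 158 CPM in young and to 521, 164 and 367 CPM in aged replicates 1, 2 and 3, and all 10 were positive with a median log2 fold change of 1.43 and 0 called by edgeR (10 at an unadjusted p below 0.05, beside 10.4% of all genes, and 6 called by DESeq2, beside 2.03%). Of these 10, 5 had both aged replicates 1 and 3 at least 2 times the other 4 libraries, beside 1.31% of all genes. The part of macrophages in the values of the 10 genes was not tested. Smooth muscle genes, 8 of 8, had negative values with a median of -0.32 and 0 called by edgeR, and their sums were 32350 to 40280 CPM in young and 28080 to 33400 CPM in aged aorta.

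The summed levels of adipocyte genes did not follow the 10 genes. The 10 white adipocyte genes, none at 0, summed to 737 to 1438 CPM in young aorta, to 558 and 835 CPM in aged replicates 1 and 3 and to 1677 CPM in aged replicate 2. The 9 brown adipocyte genes gave 201 CPM in both aged replicates 1 and 3 and 2087 CPM in aged replicate 2. Young replicate 2 had 1438 and 691 CPM on these lists. The sums are weighted to genes of high CPM, with Ucp1 at 1422 CPM in aged replicate 2. Dio2 of the brown list, named after its values were seen, went with the 10 genes. It was at 48.03, 52.28 and 49.77 CPM in young and 109.3, 42.3 and 86.07 CPM in aged replicates 1, 2 and 3. The summed level of the 10 genes was 760, 810 and 800 CPM in young replicates 1, 2 and 3. The part of adipocyte RNA in the low values of aged replicate 2 was not tested. Mesothelial genes summed to 80.4 CPM in aged replicate 3 and to 1.72 CPM in aged replicate 1, and their part in the 10 genes was not tested. Schwann cell genes summed to 15.7 to 25.2 CPM in young and 31.3, 46.1 and 31.0 CPM in aged libraries, and their part in the Entpd2 values was not tested. Pericyte genes summed to 1404 to 1658 CPM in young and 1322 to 1599 CPM in aged aorta, and lymphatic endothelial genes to 8.51 to 16.9 CPM in young and 32.7, 14.8 and 50.5 CPM in aged libraries. Heart muscle genes were at 325 CPM in young replicate 1 and 44.9 to 62.1 CPM elsewhere, skeletal muscle genes at 21.3 CPM or less, lymphocyte genes at 5.86 CPM or less, and red blood cell genes between 392 and 877 CPM. Counts on genes of the mitochondrial genome made up 14.9% to 21.2% of young and 23.1%, 26.7% and 30.4% of aged libraries 1, 2 and 3.

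**Figure D5:**
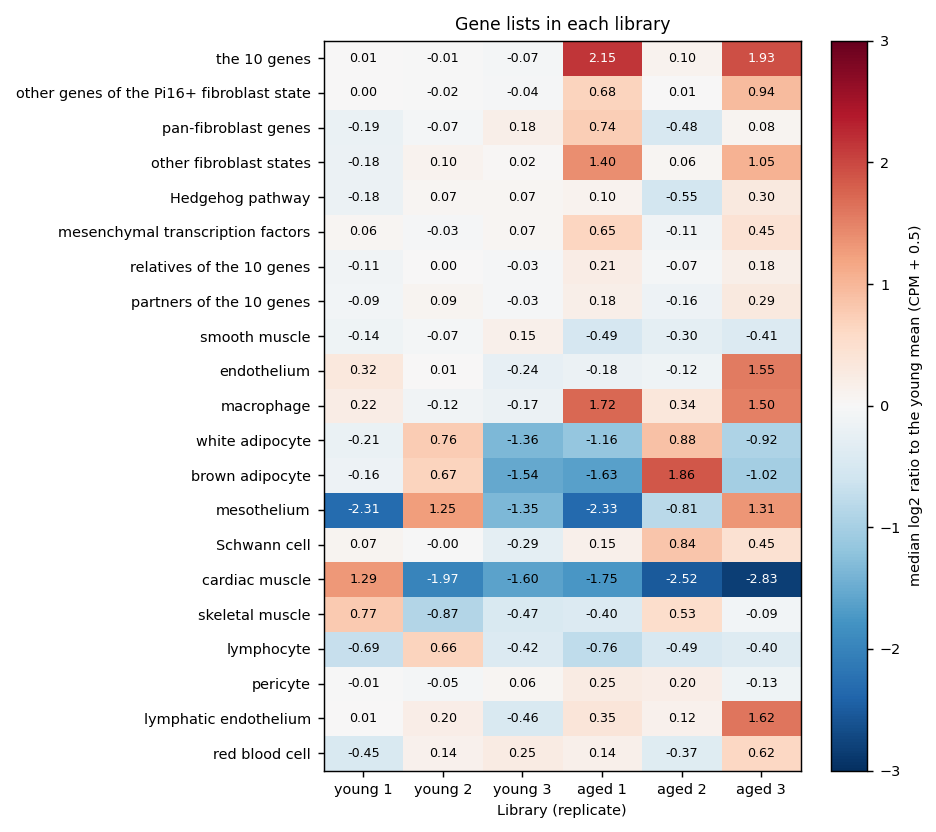
Median log2 ratio of each gene list to the young mean of each gene, after adding 0.5 to the CPM, in the 6 libraries (columns), from blue (lower) to red (higher). The 10 genes are at 2.15 and 1.93 in aged replicates 1 and 3 and at 0.10 in aged replicate 2, where brown adipocyte genes are at 1.86, while endothelial genes are high in aged replicate 3 alone (1.55).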

How the data were processed

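Aorta RNA of 3 young and 3 aged mice was analysed, with 1 library per sample as the labels describe them. The authors deposited whole-number read counts per gene without normalization and FPKM, their counts corrected for gene length and library size. Per the submitters' processing notes the build was mm10, and the aligner, counting tool and annotation are not given in the sources used here. Libraries held 31049632 to 45832185 counts. Of 55335 gene identifiers, 55154 were found in GENCODE M21 (GRCm38), the source of coordinates, and upstream sequences came from RefSeq (GRCm38.p6).

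Counts were filtered with filterByExpr (minimum count of 10, minimum total of 15), normalized by TMM and fitted with the quasi-likelihood test of edgeR 4.0.16 in R 4.3.3 without covariates. P values were adjusted by Benjamini-Hochberg over the genes tested, with a threshold of 0.05, and no p is given for the 10 genes, which were picked on this contrast. Alternatives were RLE size factors, other filters, DESeq2 1.42.0, a log2 FPKM fit by limma 3.58.1 (pseudocount 1 or 0.1), the replicate number as a block, removal of mitochondrial genes, and each library left out. The pipeline was tested on simulated counts. Correlations used log2 of CPM plus 0.5.

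The 10 genes and all lists were chosen with earlier results of these data known. Genes named are the 10, relatives and partners with a mean of at least 1 CPM, the 3 most abundant genes of each other list by FPKM where they make a point, genes of most similar profile (of which 1 is not reported here), and Xist and Ddx3y. Others are named as chosen afterwards, as are Npdc1 and Ly6i. P values set each difference against variation estimated from these samples only.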

Additional observations from a re-analysis of the deposited data

How the results depend on the processing

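All 10 log2 fold changes stayed positive under every alternative run. Each run used the same libraries and kept aged replicate 1 or 3, where the genes were picked as high, so the sign supports nothing by itself. Their median of 1.59 lay between 1.07 (limma with a pseudocount of 1) and 2.03 (without aged replicate 2), and between 1.24 (without aged replicate 1) and 2.03 with 1 library left out. With limma, run on FPKM without TMM factors, the median of all genes was -0.12 and -0.19 with pseudocounts of 1 and 0.1, against 0.02 by edgeR. The order of the mean levels was the same by exonic length and without any 1 library. The count of 0 genes called by edgeR became 338 with DESeq2, of which 221 were higher in aged aorta. Leaving out aged replicate 2 gave 110, and leaving out any of the others gave 0. Among the listed genes outside the 10, edgeR called 0 of 213 tested. With DESeq2 it was 18 of 213, beside 2.03% of all genes. On leaving out aged replicate 2 it was 12 of 216, all higher in aged aorta, beside 0.583% of all genes called higher. The count stayed at 0 on leaving out any of the others. The lists were chosen with earlier results of these data known, and nothing is read from these counts. What causes the changes in the number of calls was not tested. With the replicate number as a block, 0 genes were called and the median of the 10 was 1.34. Deviations of same-numbered libraries correlated at 0.079, 0.117 and 0.096, short of the 0.1 in every pair that was asked for, and same numbers were therefore not taken as pairs, although every library correlated best with its own number. With 3 libraries in each group, standard errors of 0.43 to 0.66 limit what can be told of the size of each difference.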

Other observations

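Dpp4, a surface peptidase often used beside Pi16 to mark the same fibroblasts, did not share the profile of the 10 genes. It was singled out after its values were seen. Its levels were 1.38, 8.31 and 2.36 CPM in young replicates 1, 2 and 3 and 4.75, 3.61 and 13.3 CPM in aged replicates 1, 2 and 3, with a log2 fold change of 0.85 (SE 0.76, adjusted p = 0.705 from edgeR). The libraries in which it was highest, young replicate 2 and aged replicate 3, also held the most mesothelial RNA, where 8 marker genes summed to 79.3 and 80.4 CPM against 1.72 to 15.8 CPM in the other 4. Upk3b alone, a membrane protein of mesothelium, was at 32.4 and 33.3 CPM in these libraries and at 6.81 CPM or less elsewhere. The part of mesothelium in the Dpp4 values was not tested.

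Ptch1 and Hhip, targets of Hedgehog signalling, varied widely within the young group, and Gli1 did not. Ptch1, which encodes the receptor and is itself induced by the pathway, was at 3.74 CPM in young replicate 1, the library whose sex-linked genes went against its given sex, against 28.97 and 28.23 CPM in young replicates 2 and 3, and at 32.2, 10.8 and 33.9 CPM in aged replicates 1, 2 and 3. Hhip, a ligand-binding inhibitor induced in the same way, was at 0.908, 2.93 and 18.0 CPM in young and 47.8, 6.76 and 19.6 CPM in aged libraries, and Gli1 at 24.98, 34.5 and 28.4 CPM in young and 47.5, 22.2 and 39.6 CPM in aged libraries. These genes were also named after their values were seen, and their adjusted p by edgeR were 0.888, 0.599 and 0.713.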
